A study of Danio rerio with 18 samples.

Results

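Oxidative phosphorylation is carried out by 5 protein complexes whose subunits are encoded in 2 genomes, and the transcripts of both were followed here in sox10 mutant zebrafish (Danio rerio). Genes were taken by symbol. They comprised ND1 to ND6, ND4L, CYTB, COX1 to COX3, ATP6 and ATP8 of the mitochondrial genome, and every nuclear gene whose symbol begins with ndufa, ndufb, ndufc, ndufs, ndufv, sdh, uqcr, cox4 to cox8 or atp5. The rule found 121 of the 25581 listed genes, 13 mitochondrial and 108 nuclear. The nuclear genes belong to complex I (46, of which 8 encode assembly factors), complex II (9, with 4 assembly factors), complex III (8), complex IV (25) and complex V, the ATP synthase (20). The symbol prefix also brings in ndufa4a and its relatives, counted here with complex IV, and cox7a2l, a factor that joins complexes III and IV.

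Whole-body RNAseq was performed on pools of homozygous sox10 mutants (sox10-/-, the ci3020 allele) and of stage-matched wild types from sibling or cousin families, with 3 pools and so 3 libraries per genotype. At 45 h post-fertilization (hpf), pools held 10 to 25 wild-type embryos or 10 to 15 mutants. At 4 days post-fertilization (dpf), each wild-type pool had 10 to 15 larvae and each mutant pool 10 to 12. No group received a treatment. The ci3020 allele lacks the start of the sox10 coding sequence but is not an RNA null. RNA was poly-A selected. The values are TPM, a measure of transcript abundance that is corrected for length and adds up to the same total in every library. Levels can be set side by side between genes only as far as length correction and poly-A selection act alike on them. That was not checked, and very short genes such as ATP8 and ND4L may differ in it. A rise in a few very abundant transcripts also lowers the TPM of all others. Because whole animals were pooled, fewer cells of a type and less RNA per cell cannot be told apart.

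In the mitochondrial inner membrane, complexes I to IV pass electrons from NADH and succinate to oxygen, and complexes I, III and IV pump protons that drive the ATP synthase. The mitochondrial genome encodes core subunits of complexes I, III, IV and V. Complex II is encoded in the nucleus alone. Mitochondrial genes are transcribed from both strands as long precursors that are cut into messengers, with ND6 as the protein gene of the opposite strand. Each nuclear gene has its own promoter. Several complex IV subunits have tissue isoforms. In mammals COX6A2, COX7A1 and COX8B are the heart and skeletal muscle forms, and the teleost genome duplication has added further paralogs.

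Several features of the whole data set bear on these genes. The tables labelled 4 dpf and 7 dpf hold identical values in all 25896 lines, so they were counted once, and the values are given here as those of the 4 dpf table without knowledge of which age they were measured at. The listed genes summed to between 934603 and 953131 TPM per library. Numbers of reads are not held in the tables, so the reads behind a single TPM are unknown, and errors are those of 3 libraries. Nothing in the labels says whether the pools came from separate crosses, so P values measure the spread between these libraries. The mutated gene, sox10, was listed between 9.47 and 14.0 TPM in wild types and between 6.61 and 11.2 TPM in mutants at 45 hpf, and between 5.25 and 7.33 TPM and 5.77 and 8.41 TPM in the 4 dpf table, which does not check the genotype labels, as mutants can still make sox10 RNA. A gene without a symbol, ENSDARG00000111458, took 12.3% of the listed TPM in mutant 3 at 45 hpf, and 15.6% and 7.70% in mutants 1 and 3 of the 4 dpf table. It took 0.892% to 4.08% in the 6 wild-type libraries. Mutants 1 and 2 at 45 hpf, at 1.79% and 1.04%, and mutant 2 of the 4 dpf table, at 3.70%, lay within that range. The median log2 fold change of all tested genes, mutant over wild type, was -0.25 at 45 hpf and -0.33 in the 4 dpf table, and median-of-ratios rescaling, which divides each library by its median ratio to a reference library, moved it to 0.00 and 0.03. Estimates of single nuclear genes include that shift unless called rescaled, and rescaled ones are given for some of them. The whole-body label was checked against markers of skeletal muscle, heart, neurons, liver and erythrocytes. All 15 muscle and all 8 neuronal markers were above 0 in every library, while fabp10a and ttr of liver were at 0 in some 45 hpf libraries, hbbe3 of erythrocytes in 5 of 6 libraries of the 4 dpf table and nppb of heart in some libraries of each table.

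The 13 mitochondrial genes took up far more of the TPM than the 108 nuclear ones. Mean TPM over 12 libraries ran from 1254 (ND5) to 20554 (COX2) for the mitochondrial genes, with a median of 3859, and from 0.0548 (ndufa9b) to 686 (atp5mc3b) for the nuclear genes, with a median of 90.7. Together the 13 accounted for 11.5, 8.50 and 9.72% of the listed TPM in the wild-type libraries at 45 hpf and for 11.5, 9.64 and 10.7% in the mutants. Their share in the 4 dpf table was 8.07, 8.19 and 6.20% in wild types and 19.5, 10.7 and 17.1% in mutants. The groups overlapped at 45 hpf, whereas every mutant library exceeded every wild-type library in the 4 dpf table, with mutant 2 the nearest to them. Group means there were 7.49 ± 1.12% and 15.8 ± 4.53% (SD, n = 3 each), and mutants 1, 2 and 3 stood at 2.61, 1.43 and 2.28 times the wild-type mean. No test was made of this sum.

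The nuclear share was lower in 5 of 6 mutant libraries than in the wild types of the same table. Nuclear genes held 2.09, 2.12 and 2.08% of the listed TPM in wild types at 45 hpf and 1.96, 1.96 and 1.57% in mutants, where mutant 3 was the lowest. Shares in the 4 dpf table were 1.85, 1.58 and 1.78% in wild types and 0.982, 1.74 and 1.29% in mutants, so that mutant 2 lay among the wild types and mutants 1 and 3 below them. Outside the 13 mitochondrial genes the nuclear share was 2.01, 1.72 and 1.90% in those wild types and 1.22, 1.95 and 1.55% in those mutants, with mutant 2 again among the wild types. The ratio of mitochondrial to nuclear TPM was 4.36, 5.19 and 3.48 in wild types of the 4 dpf table and 19.9, 6.17 and 13.3 in mutants, and this ratio does not depend on how a library is scaled. At 45 hpf it was 5.48, 4.02 and 4.67 in wild types and 5.88, 4.91 and 6.81 in mutants. Mutants were above wild types in the later table alone, since mutant 2 at 45 hpf lay within the wild-type range.

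**Figure D1:**
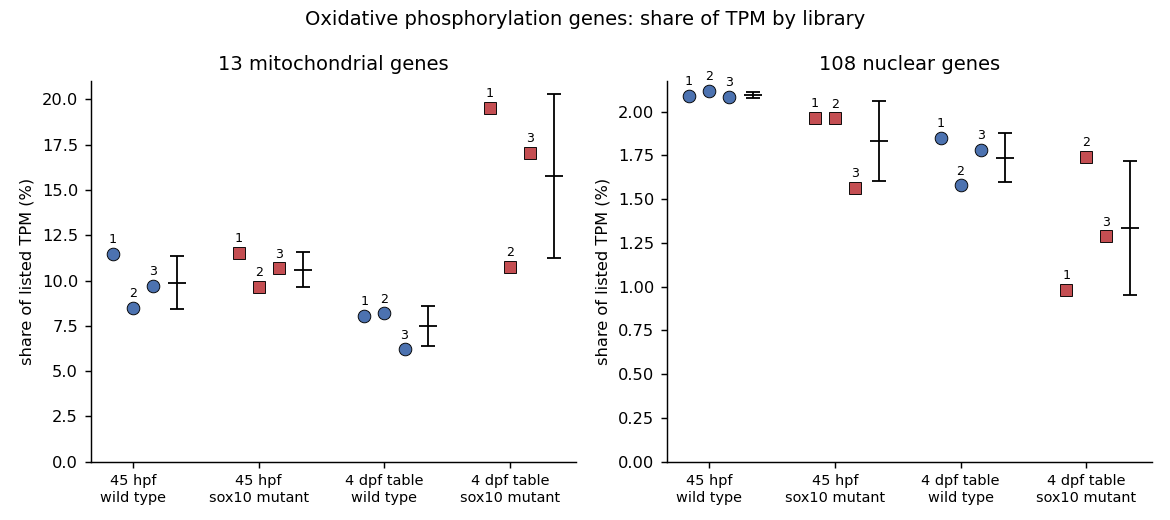
Share of the listed TPM (%) taken by the 13 mitochondrial genes (left) and the 108 nuclear genes (right), with a numbered point for each library and the mean ± SD of 3 libraries beside each group. In the 4 dpf table the 3 mutant libraries lie at 19.5, 10.7 and 17.1% on the left, all above the wild types, while mutant 2 on the right, at 1.74%, sits among them.

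At 45 hpf, no mitochondrial gene was called different between genotypes. Genes were compared on log2(TPM + 1) with limma, and a call required an adjusted P no greater than 0.05 with a log2 difference of 0.32 or more in either direction. Of all 17043 genes tested, 0.0587% were called higher in mutants and 0.499% lower (10 and 85 genes, or 25 and 77 after median-of-ratios rescaling and 49 and 88 after quantile normalization). Of the 13, 0 were called, none reached an unadjusted P of 0.05, and their median log2 fold change was 0.08. COX2, a catalytic core subunit of complex IV, gave the largest estimate. It was listed at 16119, 12563 and 14359.8 TPM in wild types and at 17328, 16351 and 17520.1 TPM in mutants, a difference of 0.26 ± 0.18 (SE), adjusted P = 0.380 on the log2 scale (limma). Its mutant libraries all lay above the wild types, as 1.94% of tested genes did, and the other 12 overlapped. ND5, a core subunit of complex I and the least abundant of the 13, was listed at 1698, 1248 and 1393 TPM in wild types and 1735, 1300.0 and 1512 TPM in mutants. ATP8, a membrane subunit of the ATP synthase, gave 20312, 15485 and 16363 TPM and 19512, 15189 and 16782 TPM. Wild type 1 and mutant 1 were the high libraries of their groups for both genes.

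In the 4 dpf table, all 13 mitochondrial genes stood higher in mutants. Of these, 8 were called, with log2 fold changes of the 13 between 0.91 and 1.27 (median 1.12), against a background of 1.56% of 17291 tested genes called higher and 18.8% called lower. All 13 reached an unadjusted P of 0.05, beside 4.45% of all tested genes in that direction. The 13 share precursors and libraries, and mutant 2 was the lowest mutant for each, so they are not 13 independent observations. For each of the 13, the lowest mutant library exceeded the highest wild type, as it did for 5.96% of all tested genes.

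Complex I contributed 6 of the called genes. ND1, which lies where the membrane arm meets the quinone site, was listed at 2165, 1774 and 1346 TPM in wild types and at 4479.5, 2828 and 4232 TPM in mutants, a log2 rise of 1.12 ± 0.29 (SE), adjusted P = 0.0436 (limma). ND5, a proton-pumping subunit, rose from 706, 572 and 529 TPM to 1807, 977 and 1573 TPM, by 1.23 ± 0.27 (SE), adjusted P = 0.0431 (limma). Mutants 1 and 3 were high and mutant 2 was intermediate for both. ND6, which is transcribed from the opposite strand, was at 2113, 2172 and 1459 TPM in wild types and 5189.9, 3256 and 5347 TPM in mutants, whose mean was 2.40 times that of the wild types (adjusted P = 0.0431, limma). ND2 and ND4, further pumping subunits, rose by 1.03 ± 0.27 and 1.01 ± 0.28, and ND4L, a small membrane subunit, by 1.17 ± 0.28 (SE; adjusted P = 0.0448, 0.0457 and 0.0431 from limma). In each of these the wild types spanned a narrower range than the mutants. ND3, with 3041, 3001 and 2149 TPM in wild types and 7271, 3711 and 6320.2 TPM in mutants, missed the threshold at 1.04 ± 0.33 (SE), adjusted P = 0.0602 (limma).

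In complex III, CYTB, which encodes cytochrome b, was listed at 3812, 4426 and 3315 TPM in wild types and 10944, 5881 and 9389 TPM in mutants, a rise of 1.14 ± 0.32 (SE), adjusted P = 0.0475 (limma). The 3 mitochondrial subunits of complex IV form its catalytic core and were not called. COX1 gave 12944, 11375 and 9996 TPM in wild types and 27472, 16954 and 24843 TPM in mutants (0.99 ± 0.35 (SE), adjusted P = 0.0742, limma). COX2 gave 17971, 19702 and 13510.2 TPM and 39681, 23574 and 37974 TPM (0.96 ± 0.39 (SE), adjusted P = 0.105, limma). COX3 showed the smallest difference, with 14562, 16217 and 12444 TPM and 32108, 19623 and 31200.1 TPM (0.91 ± 0.37 (SE), adjusted P = 0.101, limma). For COX2 and COX3 mutants 1 and 3 were close to each other, and mutant 2 lay nearer the highest wild type than either of them. Of the ATP synthase subunits, ATP6, part of the proton channel, was called, at 5178, 5313 and 3873 TPM in wild types and 16586, 7776 and 11521 TPM in mutants (1.27 ± 0.36 (SE), adjusted P = 0.0480, limma). ATP8 was listed at 8513, 8117 and 6231 TPM and 27912, 10247 and 17864 TPM and was not called (1.19 ± 0.43 (SE), adjusted P = 0.0792, limma). Mutant 1 was the highest library for both ATP6 and ATP8, whereas mutant 3 was the highest for ND2 and ND6.

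The direction of the difference was the same for all 13 genes under every alternative tried, but the number called was not. With mutant 2 left out, 13 of 13 were called, beside 3.43% of all genes called higher, while leaving out mutant 1, mutant 3, wild type 1 or wild type 3 left 0 and leaving out wild type 2 left 1. After median-of-ratios rescaling the median log2 fold change of the 13 was 1.57 and 0 were called, with adjusted P values between 0.0554 and 0.0630 (limma), and all genes together then gave 14 called higher and 27 called lower in place of 269 and 3249. Quantile normalization gave 835 and 818.

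**Figure D2:**
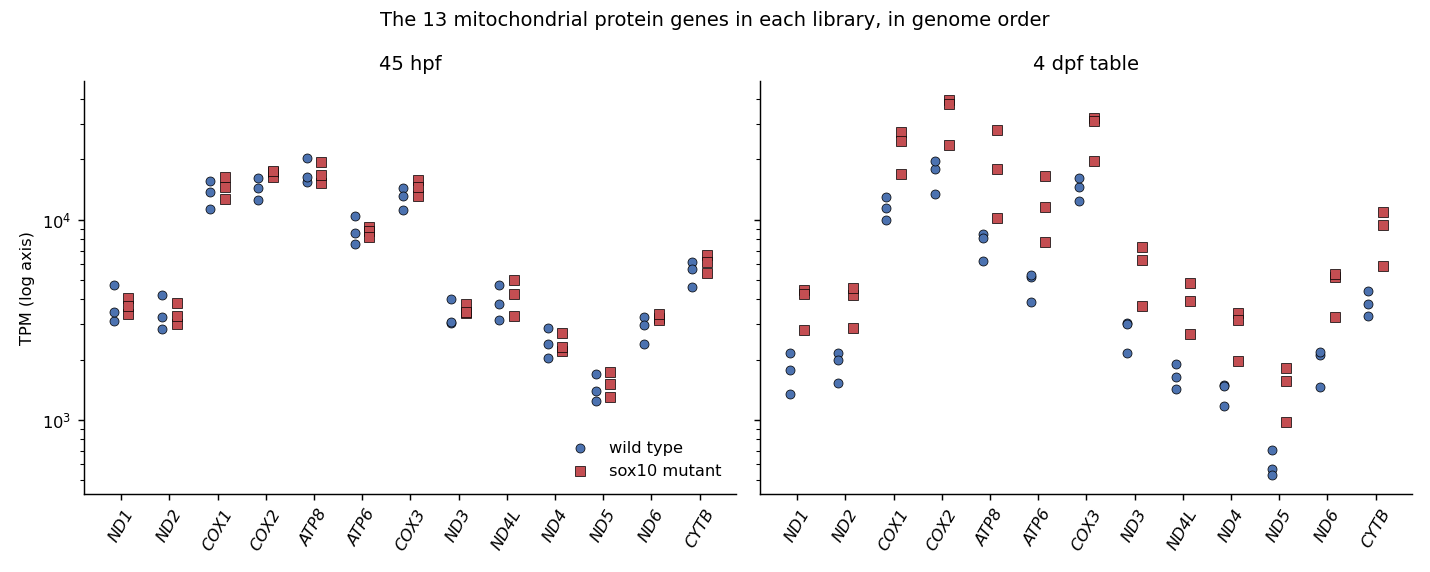
TPM (log axis) of the 13 mitochondrial protein genes, in their order on the mitochondrial genome, with 1 point for each of 3 wild-type (circles) and 3 mutant (squares) libraries at 45 hpf (left) and in the 4 dpf table (right). At 45 hpf the genotypes overlap for 12 genes, and in the 4 dpf table the mutant points lie above the wild-type points for all 13.

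The TPM listed for the mitochondrial genes did not keep fixed proportions between the tables. TPM from the 2 tables were fitted together over 12 libraries, and age cannot be told apart from the table in which a library was deposited. In wild types, 8 of 13 genes were lower in the 4 dpf table than at 45 hpf and 0 were higher, against 37.9% and 25.5% of 17403 tested genes. ND5 fell by 1.26 ± 0.23 (SE) on the log2 scale (adjusted P = 0.000424, limma), ND4L by 1.22 ± 0.25 and ATP8 by 1.19 ± 0.33. The wild-type libraries that gave these values were at 4724, 3169 and 3814 TPM at 45 hpf and 1912, 1640.3 and 1426 TPM in the 4 dpf table for ND4L. ND1, ATP6, ND2, ND4 and ND6 were also called lower, at -1.10, -0.89, -0.86, -0.81 and -0.60. The complex IV core did not follow them. COX2 and COX3 had estimates of 0.24 ± 0.27 and 0.16 ± 0.26 (SE), and COX1 of -0.25 ± 0.25, none of them called (adjusted P = 0.451, 0.611 and 0.414, limma). After median-of-ratios rescaling ND1, ND4L and ND5 were the 3 still called, and all 8 kept their direction.

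Within the summed TPM of the 13, COX2 took 14.8, 15.6 and 15.5% in wild types at 45 hpf and 23.5, 25.3 and 22.9% in the 4 dpf table. COX3 took 13.3, 13.8 and 14.3% and 19.0, 20.9 and 21.1%. ATP8 went from 18.7, 19.2 and 17.7% to 11.1, 10.4 and 10.6%, so that the libraries of the 2 tables did not overlap for any of these 3 genes. In mutants the same 3 genes differed between the tables in the same direction, without overlap. COX2 made up 15.9, 17.9 and 17.6% of the mitochondrial TPM in mutants at 45 hpf and 21.3, 23.0 and 23.5% in the 4 dpf table, and ATP8 17.9, 16.6 and 16.8% and 15.0, 10.0 and 11.0%. Mutant 1 of the 4 dpf table stood apart in its share of ATP8. ATP6, next to ATP8 on the genome, took 8.92, 7.60 and 7.12% in these mutants and 6.76, 6.83 and 6.57% in the wild types. In RefSeq the reading frames of ATP8 and ATP6, ATP6 and COX3, ND4L and ND4, and ND5 and ND6 overlap, so reads could be shared within each pair and their separate values are uncertain to that extent. Ratios of mutant to wild-type mean TPM ran from 0.983 (ND1) to 1.19 (COX2) at 45 hpf and from 1.92 (COX3) to 2.50 (ATP6) in the 4 dpf table.

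**Figure D3:**
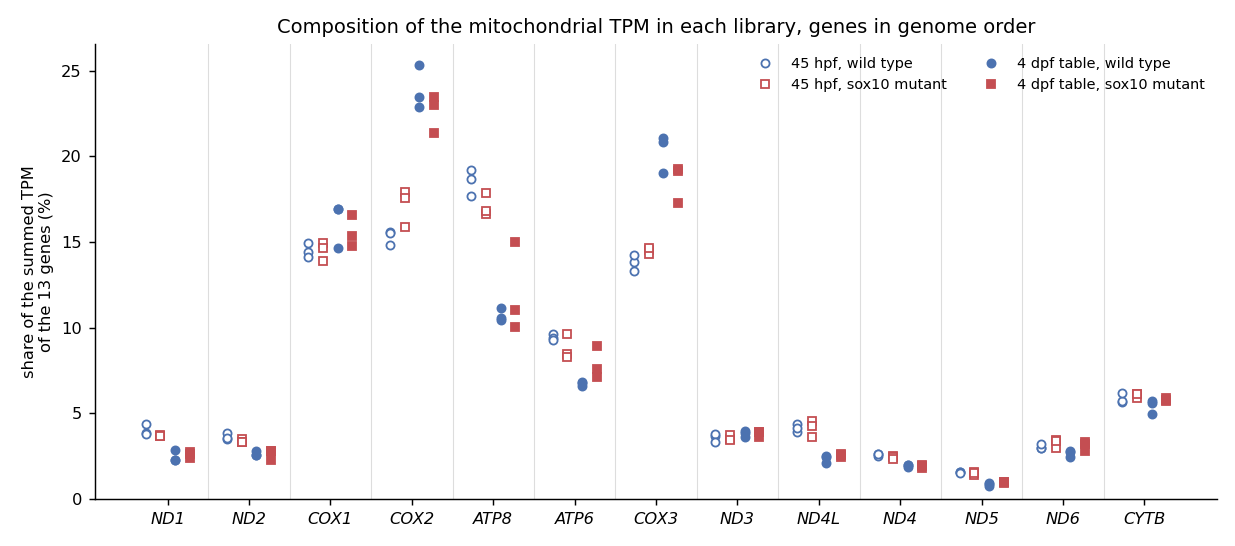
Share (%) of the summed TPM of the 13 mitochondrial genes taken by each, in genome order, with 1 point for each library (open, 45 hpf, and filled, 4 dpf table; circles, wild type, and squares, mutant). COX2 and COX3 take more, and ATP8, ND1, ND4L and ND5 less, of the total in the 4 dpf table than at 45 hpf in both genotypes.

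Whether the genotype difference itself changed between the tables was tested by an interaction term. All 13 estimates were positive, between 0.71 and 1.27 on the log2 scale. Of these, 11, which are not independent of each other, reached an unadjusted P of 0.05, beside 5.99% of all genes in that direction. Called were 0, where 0.144% of 17403 tested genes were called positive and 0.121% negative (25 and 21 genes, or 41 and 22 after median-of-ratios rescaling). ATP6 had an estimate of 1.27 ± 0.39 (SE), adjusted P = 0.179, and ND5 of 1.16 ± 0.33 (SE), adjusted P = 0.157 (limma). Leaving out mutant 2 of the 4 dpf table brought 10 of the 13 past the threshold, beside 1.29% of all genes called positive, and leaving out any other library brought 0.

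Among the nuclear genes, 103 of 108 passed the filter of at least 1 TPM in at least 3 libraries at 45 hpf. ndufa9b, ndufs8b, sdhda, ndufa4l2 and cox6a2 did not. At 45 hpf, 0 were called by limma. At an unadjusted P of 0.05, 4 were higher and 15 lower in mutants, beside 0.98% and 20.2% of all genes tested. Without mutant 1, 3 were called higher and 13 lower, where 0.689% and 31.0% of all genes were. Without wild type 2 or wild type 3 there was 1 called higher and 0 lower, where 0.253% and 0.162% of all genes were called higher. Non-overlapping groups were seen for 4 genes with mutants above and 44 with mutants below, beside 1.94% and 23.7% of all genes tested. The median log2 fold change was -0.21, against -0.25 for all genes, and after median-of-ratios rescaling it was 0.09 against 0.00, so that the sign of the nuclear group as a whole depended on the scaling.

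In the 4 dpf table, 107 nuclear members were tested (all but ndufa9b). In mutants 1 was called higher and 9 lower, where 1.56% and 18.8% of all genes were. The 1 higher, cox4i1l, and 1 of the 9, cox6a2, passed the filter through 1 genotype alone. As they could not pass it without a difference, these calls are not given as support. Without cox6a2, the genes called lower had adjusted P values between 0.0431 and 0.0477 (limma). Leaving out mutant 2 gave 40 lower of 105 tested, beside 32.7% of all genes, leaving out wild type 2 gave 5 of 106, beside 17.5%, and leaving out any of the other 4 libraries gave 0. After median-of-ratios rescaling 0 of the 9 were called, with every estimate still negative. The median log2 fold change of -0.32 was close to the -0.33 of all genes, and after rescaling the medians were 0.11 and 0.03. Mutant libraries lay above the wild types without overlap for 3 members and below them for 18, beside 5.96% and 42.8% of all tested genes. Of the 108 nuclear members, 88 were below the lowest wild type in mutant 1, 68 in mutant 3 and 26 in mutant 2. The medians for nuclear complexes I, II, III, IV and V were -0.31, -0.19, -0.25, -0.48 and -0.33.

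In the 4 dpf table, markers of skeletal muscle ordered the mutant libraries as the nuclear share did, but not the wild types. Among these, wild type 3 was highest for the markers and wild type 1 for the nuclear share. The 15 muscle markers summed to 90909.8, 79994 and 111664 TPM in wild types of the 4 dpf table and 24072, 95058 and 48978 TPM in mutants. Mutants 1 and 3 were below the wild types and mutant 2 was within their range. Of the 15 markers, 13 had negative fold changes (median -1.45), 4 of them at an unadjusted P of 0.05, beside 38.2% of all genes. Called lower was 1, myhz2, beside 18.8% of all genes. At 45 hpf they summed to 28629, 30842 and 33104 TPM and 30295, 22355 and 13397 TPM, and 15 of 15 fold changes were negative (median -0.66, 0 called). At an unadjusted P of 0.05, 11 of the 15 were lower at that age, beside 20.2% of all genes (limma). Liver markers in the 4 dpf table summed to 734, 265 and 1929 TPM in wild types and 167, 656 and 172 TPM in mutants, with 7 of 8 negative, and the 7 heart markers to 27.1, 16.1 and 28.2 TPM and 14.7, 17.2 and 15.8 TPM, with 3 of the 4 tested negative. The 8 neuronal markers summed to between 1804 and 2251 TPM in all 6 libraries, with estimates between -1.40 and 0.80. Of these, 1 was called higher and 1 lower, beside 1.56% and 18.8% of all genes. The 7 erythrocyte markers summed to 369, 191 and 309 TPM in wild types and 185, 425 and 253 TPM in mutants. At 45 hpf no marker of heart, liver, neurons or erythrocytes was called, and the medians of these lists lay between -0.26 and 0.58. All 6 liver markers tested then had positive estimates, 3 of them at an unadjusted P of 0.05, beside 0.98% of all genes (limma). Their list summed to 80.6, 111 and 45.0 TPM in wild types and 158, 109 and 140 TPM in mutants, with overlap. At the same P, 1 neuronal and 1 erythrocyte marker were lower, beside 20.2% of all genes (limma). The part of these tissues in the results was not tested.

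**Figure D4:**
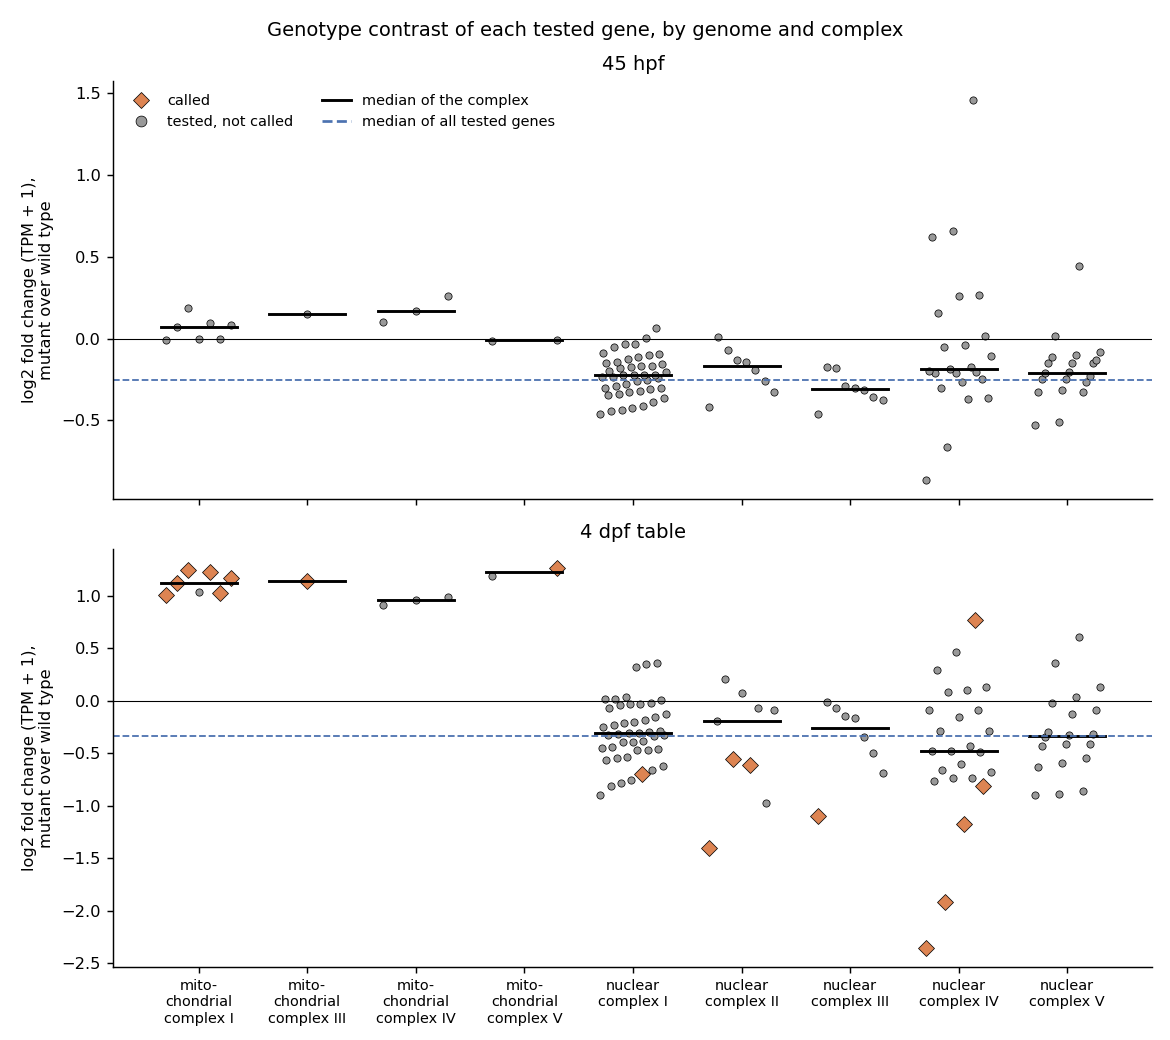
Log2 fold change of TPM + 1, mutant over wild type, for each tested member by genome and complex at 45 hpf (top) and in the 4 dpf table (bottom), with diamonds for called genes, a black bar for the median of each complex and a dashed line for the median of all tested genes. Mitochondrial genes in the 4 dpf table lie between 0.91 and 1.27, and nuclear complexes have medians between -0.48 and -0.19, around the -0.33 of all genes.

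Complex I, which oxidizes NADH, had 1 nuclear gene called lower of 45 tested in the 4 dpf table, where 18.8% of all genes were. ndufv1, the catalytic subunit that binds NADH, was listed at 94.3, 92.4 and 117 TPM in wild types of the 4 dpf table and 60.3, 69.8 and 55.9 TPM in mutants. It fell by 0.69 ± 0.16 (SE) on the log2 scale (adjusted P = 0.0431, limma). All mutants, mutant 2 included, were below the wild types, as they were for 42.8% of all tested genes. After median-of-ratios rescaling its estimate was -0.26. Other core subunits, among them carriers of the iron-sulfur clusters, gave estimates of -0.81 (ndufs7), -0.76 (ndufs1), -0.62 (ndufv2), -0.45 (ndufs8a), -0.32 (ndufs3) and 0.32 (ndufs8b), without a call. After rescaling, ndufs7, ndufs1, ndufv2 and ndufs8a came to -0.38, -0.33, -0.18 and -0.01. At an unadjusted P of 0.05, 5 of 8 core subunits were lower (median -0.66) and 2 of 29 accessory subunits (median -0.31), beside 38.2% of all genes, and the difference between these classes was not tested. ndufa1, an accessory subunit and the most abundant nuclear gene of the complex, was at 293, 209 and 276 TPM in wild types and 168, 275 and 198 TPM in mutants, with overlap and no call (-0.29 ± 0.23 (SE), adjusted P = 0.355, limma). ndufb5, an accessory subunit, was the single nuclear gene of complex I with every mutant above every wild type, as 5.96% of all tested genes were. It was at 45.4, 45.5 and 39.7 TPM and 53.8, 54.0 and 60.7 TPM, and was not called (0.36 ± 0.14 (SE), adjusted P = 0.0882, limma). After rescaling its estimate was 0.79, also without a call (adjusted P = 0.0554, limma). The 8 assembly factors had a median of -0.13 and none was called. At 45 hpf the 44 tested complex I genes lay between -0.46 and 0.06, with 0 called. Of these, 18 were below the wild types without overlap, beside 23.7% of all genes. At an unadjusted P of 0.05, 7 were lower, beside 20.2% of all genes (limma).

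Complex II oxidizes succinate and is shared with the TCA cycle. Of its 9 genes 3 were called lower in the 4 dpf table, where 18.8% of all genes were. sdha, the flavoprotein that binds succinate, was listed at 63.7, 72.3 and 101 TPM in wild types and 23.0, 43.6 and 23.2 TPM in mutants, a fall of 1.41 ± 0.29 (SE; adjusted P = 0.0431, limma). sdhb, its iron-sulfur partner, was listed at 41.3, 41.9 and 39.5 TPM and 24.6, 32.7 and 26.1 TPM (-0.55 ± 0.15 (SE), adjusted P = 0.0462, limma). Both genes were lower in every mutant than in any wild type, as were 42.8% of all tested genes. The wild types differed from each other more for sdha than for sdhb. sdhaf1, an assembly factor that helps to insert the clusters of SDHB, was at 6.30, 7.96 and 7.18 TPM and 3.90, 5.12 and 3.98 TPM (-0.61 ± 0.17 (SE), adjusted P = 0.0454, limma). The membrane anchors were not called, with sdhc at -0.97 ± 0.31 (SE), adjusted P = 0.0605 (limma) and sdhdb at 47.8, 44.5 and 36.6 TPM in wild types and 36.1, 41.9 and 42.8 TPM in mutants. After rescaling, sdha kept an estimate of -0.97, whereas sdhb and sdhaf1 came to -0.12 and -0.24, and none of the 3 was called. At 45 hpf sdha gave 54.1, 52.6 and 48.3 TPM in wild types and 45.5, 43.0 and 28.9 TPM in mutants. The mutants were below the wild types without overlap, as for 23.7% of all tested genes, and sdha was not called (-0.42 ± 0.19 (SE), adjusted P = 0.232, limma).

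In complex III, uqcrc2a and uqcrc2b encode 2 copies of the same core subunit. uqcrc2a was listed at 96.1, 74.5 and 102 TPM in wild types of the 4 dpf table and 27.7, 59.9 and 43.4 TPM in mutants, and was called lower (-1.10 ± 0.28 (SE), adjusted P = 0.0436, limma). uqcrc2b was at 59.7, 44.3 and 58.7 TPM and 32.3, 43.4 and 38.7 TPM and was not called (-0.49 ± 0.18 (SE), adjusted P = 0.0832, limma). Both were lower in all 3 mutants than in any wild type, as were 42.8% of all tested genes. The difference between the copies was not tested. Rescaling brought uqcrc2a to -0.66. uqcrb, a small subunit and the most abundant nuclear gene of the complex, was at 317, 298 and 309 TPM and 258, 318 and 265 TPM, where mutant 2 was level with the highest wild type. The Rieske protein gene uqcrfs1 and uqcrc1, another core subunit, gave -0.34 ± 0.17 and -0.01 ± 0.18 (SE), without a call.

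Complex IV had 1 nuclear gene called higher and 4 lower of 25 tested in the 4 dpf table, beside 1.56% and 18.8% of all genes. The rise, cox4i1l, and 1 of the falls, cox6a2, passed the filter through 1 genotype alone and are not given as support. The largest fall among called nuclear genes was that of cox5bb. cox5bb, a paralog of the zinc-binding subunit COX5B, was listed at 40.5, 25.9 and 41.0 TPM in wild types of the 4 dpf table and 2.21, 21.0 and 4.00 TPM in mutants. It fell by 2.35 ± 0.66 (SE; adjusted P = 0.0472, limma), with mutant 2 well above the other mutants. cox6a2, in mammals the muscle form of COX6A, was at 4.81, 4.73 and 5.62 TPM and 0.132, 0.831 and 0.966 TPM (-1.92 ± 0.24 (SE), adjusted P = 0.0368, limma). For cox6a2 mutant 2 stood with the other mutants, at less than any wild type, and the gene passed the filter through the wild types alone. cox8b, in mammals also a muscle form, was at 33.6, 27.4 and 34.4 TPM and 13.1, 22.0 and 19.0 TPM (-0.81 ± 0.21 (SE), adjusted P = 0.0439, limma). cox7a2l, which joins complexes III and IV into supercomplexes, was at 138, 126 and 151 TPM and 36.0, 96.9 and 62.8 TPM (-1.18 ± 0.33 (SE), adjusted P = 0.0477, limma). cox5bb, cox8b and cox7a2l were lower in every mutant than in any wild type, as were 42.8% of all tested genes. Mutant 1 was the lowest library for each. Their rescaled estimates were -1.97, -0.38 and -0.74. At 45 hpf cox6a2 was below the filter and cox5bb gave 8.45, 9.30 and 11.1 TPM in wild types and 8.32, 6.45 and 3.29 TPM in mutants.

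cox4i1l, a COX4 paralog of low abundance, was the called rise. It was listed at 0.622, 0.426 and 0.784 TPM in wild types of the 4 dpf table and 1.59, 1.97 and 1.65 TPM in mutants (0.77 ± 0.16 (SE), adjusted P = 0.0431, limma). At 45 hpf it was at 2.09, 3.91 and 4.23 TPM and 8.58, 20.5 and 6.96 TPM, the largest estimate of any nuclear member at that age, and missed the threshold (1.46 ± 0.34 (SE), adjusted P = 0.0921, limma). Mutants exceeded wild types without overlap in both tables, as they did for 1.94% of all tested genes at 45 hpf and 5.96% in the 4 dpf table. It passed the filter on low values in the 4 dpf table through the mutant libraries alone, and cox6a2 through the wild types alone. Neither could pass it without a difference, so neither call in that table is given as support. At 45 hpf cox4i1l was called with the replicate number as a block, and when mutant 1, wild type 2 or wild type 3 was left out. These were 4 of 17 alternatives. Over the 17, adjusted P values ran up to 0.258, with 0.0885 after median-of-ratios rescaling (limma). Its share of the COX4 transcripts was 0.349, 0.634 and 0.673% in wild types and 1.46, 3.39 and 1.48% in mutants at 45 hpf, and was 0.0892, 0.0720 and 0.124% and 0.445, 0.325 and 0.324% in the 4 dpf table.

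Shares within an isoform group are free of the scaling of the library, and they are given as descriptions. COX6B was made up of cox6b2 and cox6b1. The share of cox6b1 was 14.2, 14.0 and 15.2% in wild types and 22.5, 26.3 and 17.6% in mutants at 45 hpf, and 4.24, 4.33 and 5.16% and 13.4, 7.28 and 7.79% in the 4 dpf table. Mutants were higher in both. cox6b2, the most abundant nuclear gene of complex IV, was at 698, 639.6 and 680.4 TPM in wild types and 314, 647 and 432 TPM in mutants of the 4 dpf table, and cox6b1 at 30.9, 28.9 and 37.0 TPM and 48.7, 50.8 and 36.5 TPM, where mutant 3 overlapped the wild types. Neither was called in either table. cox4i2, in mammals linked to low oxygen, took 15.0, 19.9 and 14.0% of COX4 in wild types and 22.1, 14.4 and 22.4% in mutants of the 4 dpf table, with overlap, and cox5ab took 18.2, 18.9 and 17.2% and 26.3, 22.0 and 22.3% of COX5A, without overlap.

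cox7a1, the muscle form of COX7A in mammals, was variable in the later table. Mutants gave 11.5, 80.2 and 42.1 TPM against 44.8, 43.6 and 57.3 TPM in wild types, so that mutant 2 was above and mutants 1 and 3 were below all wild types. At 45 hpf it was lower in every mutant, as were 23.7% of all tested genes. It gave 6.04, 7.55 and 8.69 TPM in wild types and 4.45, 3.84 and 2.68 TPM in mutants (-0.86 ± 0.22 (SE), adjusted P = 0.111, limma). cox8b lay on opposite sides of the wild types in the 2 tables. At 45 hpf it was at 3.09, 3.51 and 3.25 TPM in wild types and 5.46, 7.73 and 4.46 TPM in mutants. It was higher in all 3 mutants, as were 1.94% of all tested genes, and not called (0.66 ± 0.22 (SE), adjusted P = 0.164, limma). Among the NDUFA4 relatives, a family that in mammals includes a subunit of complex IV, ndufa4b took 10.6, 12.0 and 8.33% in wild types and 28.8, 13.4 and 16.0% in mutants of the 4 dpf table, and 10.4, 10.8 and 10.9% and 12.4, 15.6 and 11.9% at 45 hpf. Its share was higher in all mutants in both tables. The TPM of ndufa4b itself overlapped between genotypes, and that of ndufa4a, the main form, was 553, 460.0 and 557 TPM in wild types and 206, 479 and 311 TPM in mutants.

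**Figure D5:**
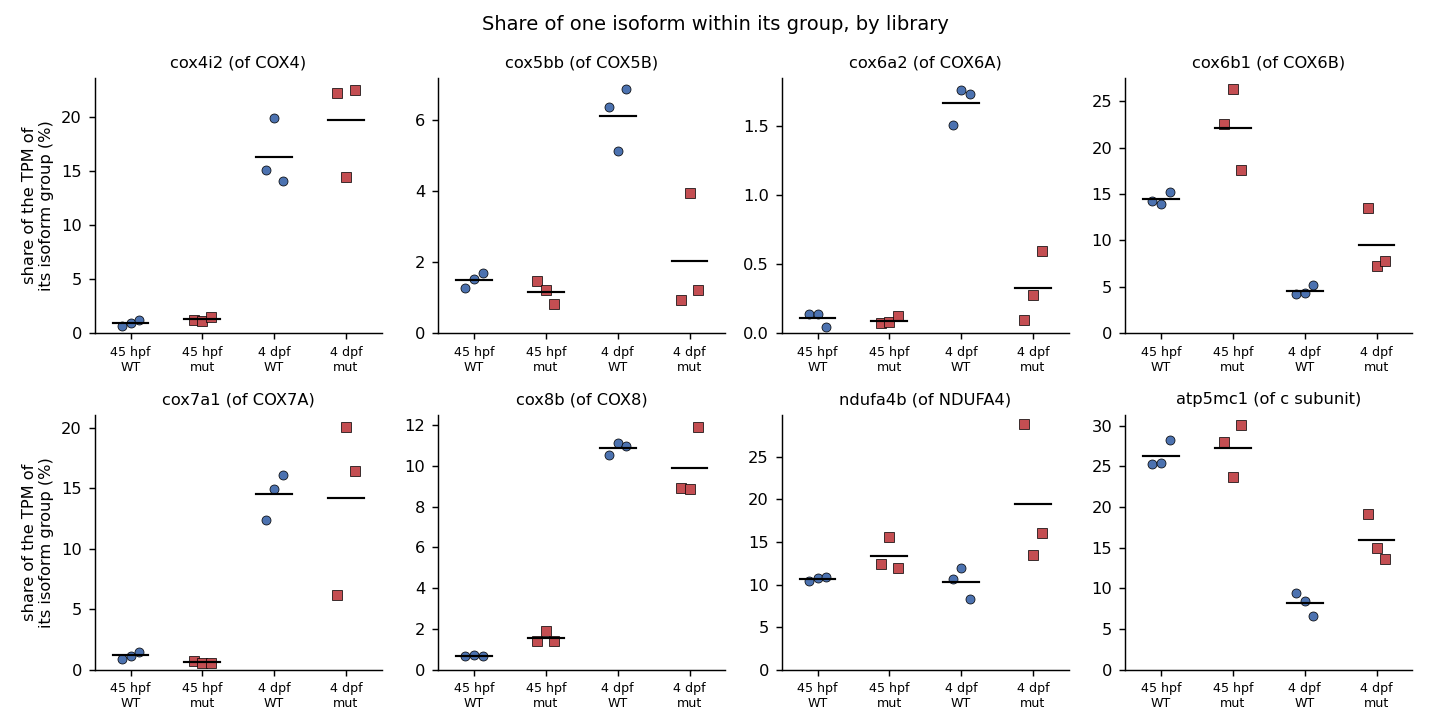
Share (%) of an isoform in the summed TPM of its group in each library, with a bar at the mean of 3 libraries (WT, wild type, and mut, sox10 mutant; each panel has its own axis from 0, and 4 dpf stands for the 4 dpf table). cox5bb takes less of its group in mutants of the 4 dpf table, as does cox6a2, which passed the filter there through the wild types alone. cox6b1 takes more of COX6B in mutants of both tables.

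No ATP synthase gene of the nucleus was called between genotypes in either table. At an unadjusted P of 0.05, 1 was higher and 3 lower in the 4 dpf table, beside 4.45% and 38.2% of all genes (limma). At 45 hpf 1 was higher and 2 lower, beside 0.98% and 20.2%. The 5 genes of the catalytic F1 head had estimates between -0.89 and -0.41 in the 4 dpf table (median -0.63). atp5f1b, the catalytic beta subunit, was listed at 442, 354 and 545 TPM in wild types and 183, 349 and 208 TPM in mutants. It was lower in every mutant, by a narrow margin in mutant 2, as were 42.8% of all tested genes (-0.89 ± 0.29 (SE), adjusted P = 0.0607, limma). atp5mc3b, 1 of 3 genes for the c subunit of the membrane ring and the most abundant nuclear member, was at 929, 852 and 1059.8 TPM and 378, 696 and 529 TPM (-0.86 ± 0.25 (SE), adjusted P = 0.0517, limma). The other c subunit genes had positive estimates and were not called either. atp5mc1 was at 108, 88.6 and 82.3 TPM and 116, 143 and 102 TPM (0.36 ± 0.18 (SE), adjusted P = 0.168, limma), and atp5mc3a at 114, 101 and 98.5 TPM and 110.2, 117 and 116 TPM (0.13 ± 0.13 (SE), adjusted P = 0.464, limma). After median-of-ratios rescaling atp5f1b and atp5mc3b came to -0.45 and -0.42, and atp5mc1 and atp5mc3a to 0.80 and 0.57, with none called. Of the c subunit TPM, atp5mc3b held 80.7, 81.8 and 85.4% in wild types and 62.5, 72.8 and 70.8% in mutants, without overlap, and 49.7, 53.4 and 51.0% and 49.9, 56.0 and 46.8% at 45 hpf, with overlap. In mammals the c subunit genes encode the same mature protein, and where paralogs are this alike, here and among the COX isoforms, reads may have been split between them. atp5mea, a membrane subunit, was higher in all mutants in both tables and was not called (0.44 ± 0.19 at 45 hpf and 0.61 ± 0.20 in the 4 dpf table, SE). Of all tested genes, 1.94% at 45 hpf and 5.96% in the 4 dpf table had every mutant above every wild type. The inhibitor gene atp5if1a was at 177, 161 and 160.4 TPM and 129.6, 203 and 189.7 TPM, and atp5if1b at 244, 217 and 209 TPM and 125, 208 and 214 TPM.

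More nuclear genes were called between the tables than between genotypes, as held for all genes, and the fits differed in their number of libraries. In wild types, 10 of 104 tested members were higher in the 4 dpf table and 31 were lower, against 25.5% and 37.9% of all genes. Median-of-ratios rescaling gave 17 higher. Of the 10, 6 belong to complex IV. cox4i2 was listed at 4.15, 5.91 and 7.28 TPM at 45 hpf and 105, 118 and 88.8 TPM in the 4 dpf table, a rise of 3.97 ± 0.19 (SE), adjusted P = 3.98e-09 (limma). cox8b went from 3.09, 3.51 and 3.25 TPM to 33.6, 27.4 and 34.4 TPM (2.93 ± 0.21 (SE), adjusted P = 1.15e-07, limma). The muscle-type cox7a1 rose by 2.56 ± 0.48, cox5b2 by 2.45 ± 0.36, cox5bb by 1.77 ± 0.54 and ndufa4l2 by 1.34 ± 0.22 (SE). ndufa4l2, counted among the 10, passed the filter through the 4 dpf table alone. It was between 1.76 and 3.02 TPM there, while 5 of 6 libraries at 45 hpf were below 1 TPM. Its call is therefore not given as support. The 15 skeletal muscle markers had a median change of 1.44 in the same contrast, 8 called higher and 3 lower. The others were the inhibitor atp5if1b (1.22), the complex II genes sdhb (0.54) and sdhaf2 (0.52), and ndufa3 (0.46).

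Some partner isoforms were lower in the later table. cox7a2b was listed at 321, 313 and 283 TPM at 45 hpf and 85.5, 62.9 and 75.6 TPM in the 4 dpf table, a fall of 2.03 ± 0.17 (SE; adjusted P = 6.21e-07, limma). cox6b1 fell by 1.75 ± 0.21 and cox4i1l by 1.42 ± 0.32. Of the c subunit genes, atp5mc1 fell from 345, 341 and 382 TPM to 108, 88.6 and 82.3 TPM (by 1.93 ± 0.16, SE) and atp5mc3a by 1.52 ± 0.13, while atp5mc3b had an estimate of 0.44 ± 0.23 (SE), adjusted P = 0.106 (limma). Shares within the isoform groups differed accordingly. cox4i2 held 0.693, 0.958 and 1.16% of COX4 in wild types at 45 hpf and 15.0, 19.9 and 14.0% in the 4 dpf table, cox8b 0.662, 0.746 and 0.680% and 10.5, 11.1 and 11.0% of COX8, and cox7a1 0.914, 1.18 and 1.47% and 12.4, 15.0 and 16.1% of COX7A. ndufc2, an accessory subunit of complex I, fell the most in that complex, by 1.37 ± 0.20 (SE; adjusted P = 6.77e-05, limma). No nuclear member was called in the interaction of genotype and table. At an unadjusted P of 0.05, 3 were positive and 6 negative, beside 5.99% and 9.06% of all genes (limma). Leaving out mutant 2 of the 4 dpf table gave 5 negative calls, where 3.44% of all genes were called negative. After median-of-ratios rescaling cox8b was called, where 0.127% of all genes were called negative.

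Other mitochondrial genes, taken from lists of each pathway, were counted in the same fits. The TCA cycle, which feeds the chain, had 0 higher and 3 lower of 20 tested in the 4 dpf table (median -0.54). Its most abundant genes, idh2, pdhb, cs and suclg1, had estimates of -0.49, -0.42, -0.55 and -0.99, none called. Carriers and electron shuttles had 0 higher and 12 lower of 29 tested (median -0.64), led in abundance by slc25a5, an ADP/ATP carrier, at 3036, 2748 and 3217 TPM in wild types and 1649, 2539 and 1990.0 TPM in mutants. Genes of mitochondrial transcription, RNA handling and translation had 0 higher and 4 lower of 33 tested (median -0.23), mitochondrial ribosomal proteins 1 higher and 1 lower of 75 tested (median -0.14), and assembly factors outside the symbol rule 1 higher and 2 lower of 37 tested (median -0.11). The mitochondrial transcription factor tfam was at 18.8, 17.0 and 18.6 TPM and 13.9, 17.2 and 17.4 TPM. Regulators of mitochondrial biogenesis had 0 higher and 3 lower of 12 tested (median -0.52), and glycolysis 0 higher and 3 lower of 33 tested (median -0.20). All of these counts stand beside the 18.8% of all genes called lower. At 45 hpf no gene of these lists was called but for 1 assembly factor, taco1, which was lower and passed the filter through the wild types alone.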

How the data were processed

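Pools of whole zebrafish were sequenced as poly-A selected, stranded, paired-end mRNA libraries. Before deposition the authors trimmed reads with Trimmomatic 0.39 and estimated TPM with kallisto, with GRCz11 named as the build in the submitters' processing notes. The kallisto version, the transcript set, the step from transcripts to genes and the use of strand are not given in the sources used here. The deposited TPM of 2 tables (25896 lines, 315 of them repeats of a gene, which were dropped) were used. The 6 columns of the 7 dpf table repeat the 4 dpf table and were not used.

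Symbols were matched by the rule, and members and gene lists were chosen with earlier results of these data known. TPM were tested as log2(TPM + 1) with limma 3.58.1 in R 4.3.3 (lmFit, eBayes with trend, Benjamini-Hochberg adjustment over all genes tested). Genes entered with at least 1 TPM in 3 of 6 libraries of a table, or in 6 of 12 for the fit over both tables, which held the genotype, table and interaction terms. SE are standard errors of the log2 difference. The pseudocount makes the log2 differences of low genes smaller. The code was tested on simulated data. Named genes were all 13 mitochondrial genes, the most abundant nuclear subunit of each complex, up to 10 called nuclear genes per direction and comparison, isoform groups and, of other lists, their most abundant genes; ndufb5, sdhc, sdhdb, uqcrc2b, atp5f1b, atp5mea, further complex I core and complex III core subunits, tfam and the genes of the closing section were added after their values were seen. Alternatives changed the pseudocount, filter, scaling, fold minimum and variance model, added a replicate block, or left out libraries. Gene order and overlaps on the mitochondrial genome were taken from RefSeq. Python 3.11.15, pandas 2.3.3 and matplotlib 3.10.9 were used for sums and plots.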

Additional observations from a re-analysis of the deposited data

Results flagged for a closer look

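cox8b, a COX8 paralog whose mammalian counterpart is the heart and skeletal muscle form, stood on opposite sides of the wild types in the 2 tables, which is why it is listed here. Mutants were at 5.46, 7.73 and 4.46 TPM against 3.09, 3.51 and 3.25 TPM in wild types at 45 hpf, and at 13.1, 22.0 and 19.0 TPM against 33.6, 27.4 and 34.4 TPM in the 4 dpf table. Every mutant library was thus above the wild types in the first table and below them in the second. Of all tested genes, 1.94% lay above in the first and 42.8% below in the second. The interaction estimate was -1.46 ± 0.30 (SE), adjusted P = 0.0684 by limma, short of the threshold, and it was -1.19 with an adjusted P of 0.0407 after median-of-ratios rescaling and -1.61 with 0.0166 without mutant 2 of the 4 dpf table (limma). Rescaling and leaving out mutant 2 were the 2 of 16 alternatives that called it. Over the 16, adjusted P values ran up to 0.230 (limma). The share of all genes on opposite sides in the 2 tables was not counted. Ages cannot be told apart from tables here.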

How the results depend on the processing

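Values below count genes called by limma, and the cause of each change was not tested unless a setting removes genes or libraries by construction. At 45 hpf the 13 mitochondrial genes gave 0 calls under every alternative. With the replicate number as a block, 1 nuclear gene was called higher there. Leaving out libraries gave 0 to 3 higher and 0 to 13 lower. Of the 4 dpf table, the 8 mitochondrial genes called higher became 0 with a pseudocount of 0.1, without the filter, after median-of-ratios rescaling, with the replicate block, and without mutant 1 with rescaling, and 13 without mutant 2 with rescaling. Leaving out single libraries gave 0 to 13. The 1 nuclear gene called higher became 0 with a pseudocount of 0.1, without the filter, with a mean of at least 5 TPM, after median-of-ratios rescaling, without genes above 10000 TPM, with the block, and without mutant 1 with rescaling. It became 6 after quantile normalization, 2 without the 13 mitochondrial genes and 10 without mutant 2 with rescaling, and single libraries left out gave 0 to 1. The 9 called lower became 0 with a pseudocount of 0.1, without the filter, after median-of-ratios rescaling, with the block, and without mutant 1 with rescaling. They became 4 with a mean of at least 5 TPM, 2 after quantile normalization, 4 without the 13 mitochondrial genes, 1 without genes above 10000 TPM and 18 without mutant 2 with rescaling, and single libraries left out gave 0 to 40. A stricter fold minimum of 1.5 and a robust variance model kept all counts within 1.5 times. Between tables in wild types, median-of-ratios rescaling gave 3 mitochondrial genes lower in place of 8 and 17 nuclear genes higher in place of 10. For the interaction, 0 positive mitochondrial calls became 10 without mutant 2 of the 4 dpf table and stayed 0 without any other library, and 0 negative nuclear calls became 1 without the filter or after rescaling, and 0 to 5 with libraries left out. Removing the 13 mitochondrial genes or the genes above 10000 TPM gives no mitochondrial count. Over all genes of the 4 dpf table the block left 0 called higher and 2 lower, while at 45 hpf it gave 68 and 669 in place of 10 and 85. Same-numbered libraries of the 2 genotypes did not deviate together (correlations -0.31 to -0.01 at 45 hpf and -0.61 to -0.15 in the 4 dpf table). With 3 libraries per group, these correlations cannot show whether same-numbered pools shared a cross or batch, and the labels do not say. The block result is given for completeness. Settings that join a left-out mutant with rescaling were added after seeing the data. No gene called in a main fit changed sign under an alternative. Some genes called in an alternative alone did so between alternatives, such as atp5po in the 4 dpf table (-0.60 to 0.13). Medians of the genotype contrasts also changed sign. That of the nuclear genes went from -0.21 to 0.09 at 45 hpf and from -0.32 to 0.11 in the 4 dpf table after median-of-ratios rescaling. That of the mitochondrial genes at 45 hpf went from 0.08 to -0.03 without mutant 1 or without wild type 2. Quantile normalization gave nuclear medians of 0.002 and 0.07 and a mitochondrial median of -0.02 at 45 hpf.

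Reads per gene could not be had from TPM, and 3 libraries per group, each a pool, limit what can be called. Without cox4i1l and cox6a2, adjusted P values of members called in the 4 dpf table lie between 0.0431 and 0.0480, near the threshold.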

Other observations

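Among genes named here after their values were seen, the uncoupling protein genes were called lower in mutants of the 4 dpf table, where 18.8% of all genes were. Calls in this section are those of the main fit. After median-of-ratios rescaling 27 of all genes were called lower, in place of 3249. No rescaled estimate was made for single genes outside the symbol rule. The log2 estimates below therefore stand beside a median of -0.33 for all genes. ucp1, which in mammals lets protons leak back across the inner membrane, was listed at 136, 155 and 230.4 TPM in wild types and 37.1, 70.4 and 56.8 TPM in mutants (log2 fold change -1.66, adjusted P = 0.0431, limma). Its mutants were below the wild types without overlap, as for 42.8% of all tested genes. ucp2 was at 114, 96.9 and 102 TPM in wild types and 73.8, 45.4 and 51.8 TPM in mutants, and ucp3 at 58.5, 60.5 and 79.7 TPM in wild types and 26.8, 21.1 and 21.1 TPM in mutants. Genes that pass electrons from fatty acid oxidation to ubiquinone, etfa, etfb and etfdh, were also called lower, at -0.61, -0.79 and -0.64, as were the ubiquinone synthesis genes coq2, coq8aa and coq9, at -0.97, -1.50 and -1.07. These were 3 of 13 ubiquinone synthesis genes tested, of which 9 had negative and 4 positive estimates (-1.50 to 0.75, median -0.35), beside 18.8% of all genes called lower. Of the biogenesis regulators, the coactivator gene ppargc1a was at 4.06, 1.65 and 4.96 TPM in wild types and 0.385, 1.49 and 0.374 TPM in mutants, and esrra, a nuclear receptor that works with it, at 7.95, 3.58 and 10.6 TPM in wild types and 0.670, 2.74 and 1.36 TPM in mutants. ppargc1a and esrra were lower in mutants 1 and 3 than in mutant 2, as the skeletal muscle markers were. ucp2 and ucp3 did not follow that order, and mutant 1 was the highest mutant library for both. The part of muscle in these values was not tested.

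taco1, which in mammals is needed for translation of COX1, was low in mutants of both tables. It was listed at 3.49 and 1.39 TPM in wild types 1 and 2 at 45 hpf, with wild type 3 just below them, and at 0, 0.239 and 0 TPM in mutants. Wild types of the 4 dpf table gave 3.59 and 1.51 TPM in libraries 1 and 3 and more in library 2, and it was listed at 0 in the 3 mutant libraries. It passed the filter on low values through the wild types alone in both tables and could not pass it without a difference, so its calls are not given as support.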
